A study of Rattus norvegicus with 28 samples.

Results

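The late lumbar spinal cord of rats with an edited mitochondrial genome was compared with that of wild-type rats in 8 RNA libraries, out of 28 samples that the study lists over spinal cord and brain. The members were taken from the names of the columns of the lumbar count table that is not titled as early stage, 4 with a plus mark ("jia") and 4 with a minus mark ("jian"). Plus was read as genotype mtCO3mut and minus as WT, a reading that neither the labels nor the table states. Libraries are therefore called plus-marked and minus-marked, numbered 1 to 4 in the order of the columns, and "higher" and "lower" always mean plus-marked against minus-marked. If the marks stood for the opposite genotypes, every direction below would turn. The design text writes the edited rats as COXⅢNeuN-Cre and speaks of deficiency in neurons; the name joins NeuN, a nuclear protein of neurons, with the recombinase Cre. The labels give no age, strain or sex, and do not say whether the WT rats carried Cre. "Late" is used only because another set of the same tissue is titled early stage.

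Cytochrome c oxidase, respiratory complex IV, passes electrons from cytochrome c to oxygen at the end of the respiratory chain and pumps protons that drive ATP synthesis. Its catalytic core, which includes the subunit encoded by the mitochondrial COX3 gene, is made inside mitochondria, and its other subunits come from nuclear genes. Motor neurons of the ventral horn of the spinal cord have long axons and a high demand for ATP. They are among the cells lost in amyotrophic lateral sclerosis, the disease named in the title of the study. Lumbar cord is a mixed tissue of neurons, astrocytes, oligodendrocytes, microglia and vessels. In such bulk RNA, fewer cells of a type and less RNA per cell cannot be told apart.

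The table gives an Ensembl identifier for each gene and no gene name. Of its 30560 identifiers, 0 could be matched to a name in the reference table used here, which lists 47357 genes and holds an Ensembl identifier for 0 of them. The edited gene and the markers of the lumbar cord and its cell types were therefore not examined, and the label of the tissue was not checked. No gene sequence is shown for the same reason. The results below describe how many genes moved, how far, at what abundance and in which libraries, with 4 genes given by identifier.

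Total counts had a median of 33030880 in the plus-marked libraries (21008418 to 40359757) and 41514808 in the minus-marked ones (39952615 to 47597097). Plus-marked library 2 was the shallowest. The mean totals differed with p = 0.0571 by an exact permutation test, two-sided (Benjamini-Hochberg adjusted 0.114 over 4 library measures). The number of genes at 1 CPM or more (CPM, counts scaled to a fixed library size) was 15100 ± 113 in plus-marked and 14940 ± 61.7 in minus-marked libraries (SD, n = 4), with an exact permutation p of 0.0571 (adjusted 0.114). The 10 most abundant genes held 4.85 ± 0.623% and 5.52 ± 0.345% of the counts, and the 100 most abundant held 13.6 ± 0.951% and 14.5 ± 0.403% (exact permutation p = 0.114 and 0.143, both 0.143 adjusted). The groups overlapped in all 4 measures. The smallest p that 4 against 4 libraries allow is 0.0286.

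Most low counts were even numbers. Among genes with 1 to 10 counts, 80% to 83.3% of the values were even in each of the 8 libraries, and among genes with 1001 to 10000 counts 54.0% to 56.4% were. Between 905 and 1003 genes per library had exactly 2 counts, and between 212 and 270 had exactly 1. The reads were sequenced in pairs, and no source used here says whether both mates of a pair were counted. The number of independent fragments behind a count may therefore be smaller than the count itself. With every count halved and rounded up, an alternative chosen after seeing the data, 2397 genes were called in place of the 2312 described next.

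Of 17134 genes that passed the filter on low counts, 2312 differed between the marks by edgeR's quasi-likelihood test at a Benjamini-Hochberg adjusted p under 0.05, which is 13.5% of those tested. Called higher were 1171 genes (6.83%) and called lower 1141 (6.66%). The genes called higher moved farther than those called lower. Their median log2 fold change was 0.78 (quartiles 0.52 and 1.19), against -0.54 for the genes called lower (quartiles -0.71 and -0.43). Over all genes tested the median was 0 and the quartiles were -0.23 and 0.25. At 1.5-fold or more, 790 genes were higher and 471 lower. At 2-fold or more the numbers were 419 and 124, at 4-fold or more 56 and 20, and at 8-fold or more 7 and 2. The values of all 4 plus-marked libraries lay on one side of all 4 minus-marked ones for 20.2% of the genes tested, 9.13% higher and 11.1% lower. Over all 30560 identifiers of the cord table, before the filter, 0 genes had at least 10 counts in every library of one mark and no count in any of the other. With at least 1 count per library in one mark and none in the other, there were 6 genes in the plus-marked and 15 in the minus-marked libraries. The minus-marked libraries had more counts on average, and the part of depth in these numbers was not tested.

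**Figure D1:**
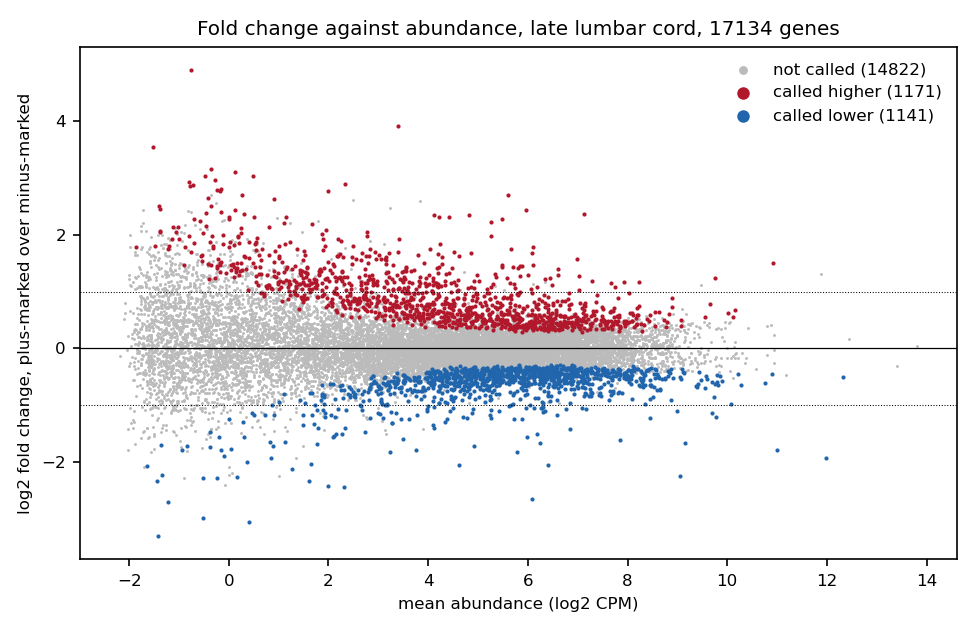
Each point is 1 of 17134 genes, with its mean abundance in log2 CPM on the horizontal axis and its log2 fold change, plus-marked over minus-marked, on the vertical axis; colours mark genes called higher (1171) and lower (1141), and dotted lines a 2-fold change. Points called higher reach farther from 0 and lie more often at low abundance, where a call takes a larger fold.

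The genes called lower were the more abundant ones. Genes called higher had a median level of 20.2 CPM and those called lower 49.7 CPM, against 21.2 CPM over all genes tested. Between 1 and 10 CPM, 348 of 4138 genes tested were higher (8.41%) and 128 lower (3.09%). Between 10 and 100 CPM, 574 of 8281 were higher (6.93%) and 690 lower (8.33%). At 100 CPM and above, 188 of 2659 were higher (7.07%) and 305 lower (11.5%). Below 1 CPM, 61 of 2056 were higher and 18 lower, and each of these had changed at least 2-fold. The excess of large increases was found below 100 CPM. From 10 to 100 CPM, 115 genes were at least 2-fold higher and 43 at least 2-fold lower. At 100 CPM and above the numbers were 11 and 13.

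**Figure D2:**
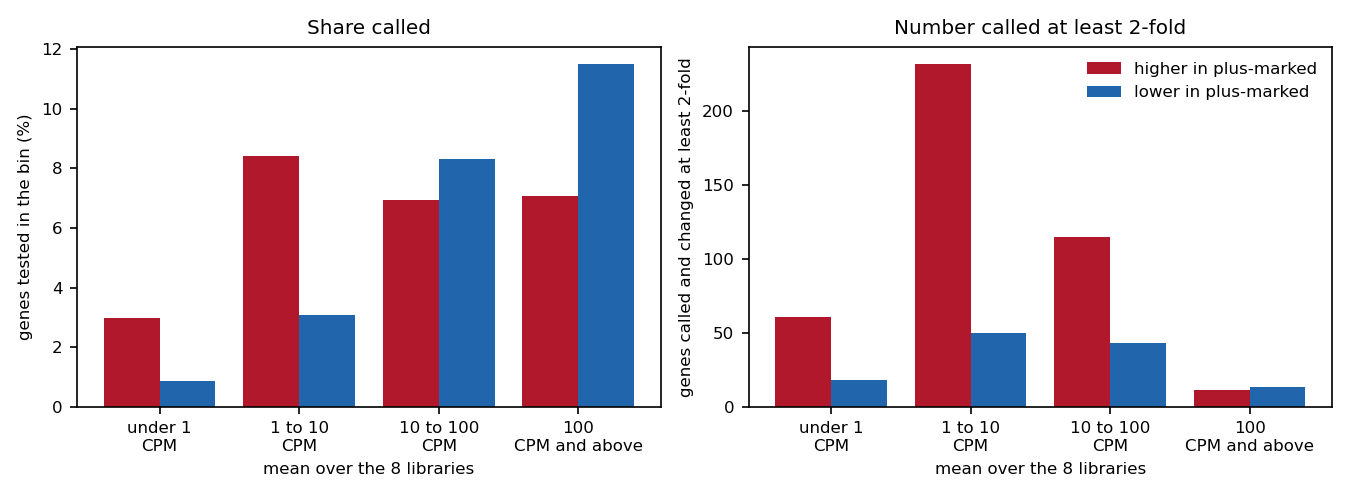
Bars give, for 4 classes of mean abundance over the 8 libraries, the percentage of genes called higher (red) or lower (blue) in the left panel and the number called and changed at least 2-fold in the right panel. Increases outnumber decreases at 1 to 10 CPM, with 8.41% against 3.09%, and decreases outnumber increases at 100 CPM and above, with 11.5% against 7.07%.

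As a share of all counts, the genes called higher made up 8.15 ± 0.429% of a plus-marked library (7.53 to 8.46%) and 5.13 ± 0.136% of a minus-marked one (4.96 to 5.26%; SD, n = 4). The genes called lower made up 9.75 ± 0.616% of a plus-marked library (8.84 to 10.2%) and 14.9 ± 0.949% of a minus-marked one (14 to 16.2%). These genes were called on the same libraries, so the shares describe the size of the change and are not a test of it.

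The calls were also counted within libraries that share a code in their column names. The names hold a code that begins with L, whose meaning is not given. Code L24 was carried by 3 plus-marked libraries and 1 minus-marked one, and the remaining 1 plus-marked and 3 minus-marked libraries carried 4 other codes. Within L24, 267 of 18141 genes were called (1.47%), 198 higher and 69 lower. Among the libraries of the other codes, 1089 of 18017 were called (6.04%), 396 higher and 693 lower. At 2-fold or more the numbers were 173 higher and 30 lower within L24, and 251 higher and 393 lower among the other codes, the opposite order. Each subset sets 1 library of a mark against 3 of the other, with the lone one assumed to have the same spread, so these counts do not show that the balance depends on the code. The only plus-marked library outside L24 is library 2, the shallowest. With L24 as a term in the fit of all libraries, 2636 genes were called. With counts thinned to the smallest library 2149 were called, and without plus-marked library 2, 1982. In each of these fits, more genes were at least 2-fold higher than at least 2-fold lower. What part the code, depth or this library had in the opposite order of the subsets was not tested.

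The direction of a gene nevertheless held across both subsets, which have no library in common. Of the 267 genes called within L24, 247 had the same direction among the other codes (92.5%). Of the 1086 genes called among the other codes and tested within L24, 997 had the same direction there (91.8%). Over all 17604 genes tested in both subsets, 71.8% had the same direction. The 120 genes called in both subsets, 80 higher and 40 lower, all had the same direction in both.

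Each library was then placed by genes that had been called without it. For every library, the fit was repeated on the other 7, and the left-out library was set on a scale on which 0 is the mean of the minus-marked and 1 the mean of the plus-marked libraries that remained. For genes called higher, the left-out plus-marked libraries had median positions of 0.97, 0.85, 0.93 and 0.74 for libraries 1 to 4. The left-out minus-marked libraries had 0.07, 0.13, 0.11 and 0.18. For genes called lower, the plus-marked positions were 0.74, 1.08, 0.87 and 0.68, and the minus-marked ones 0.13, -0.14, 0.09 and 0.22. No library lay nearer to the other mark in its median. Plus-marked library 4 and minus-marked library 4 lay nearest to the middle in both directions.

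The libraries differed in which of the 2 sets moved farther. Plus-marked library 1 was farther along for the genes called higher (0.97) than for those called lower (0.74), and plus-marked library 2 the reverse (0.85 and 1.08). Single genes were less uniform than the medians. A left-out plus-marked library was on the plus side of the midpoint for 74.8% to 91.1% of the genes called higher and 70.3% to 84.6% of those called lower. A left-out minus-marked library was on the minus side for 73.9% to 90.8% and 76.2% to 98.8%.

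**Figure D3:**
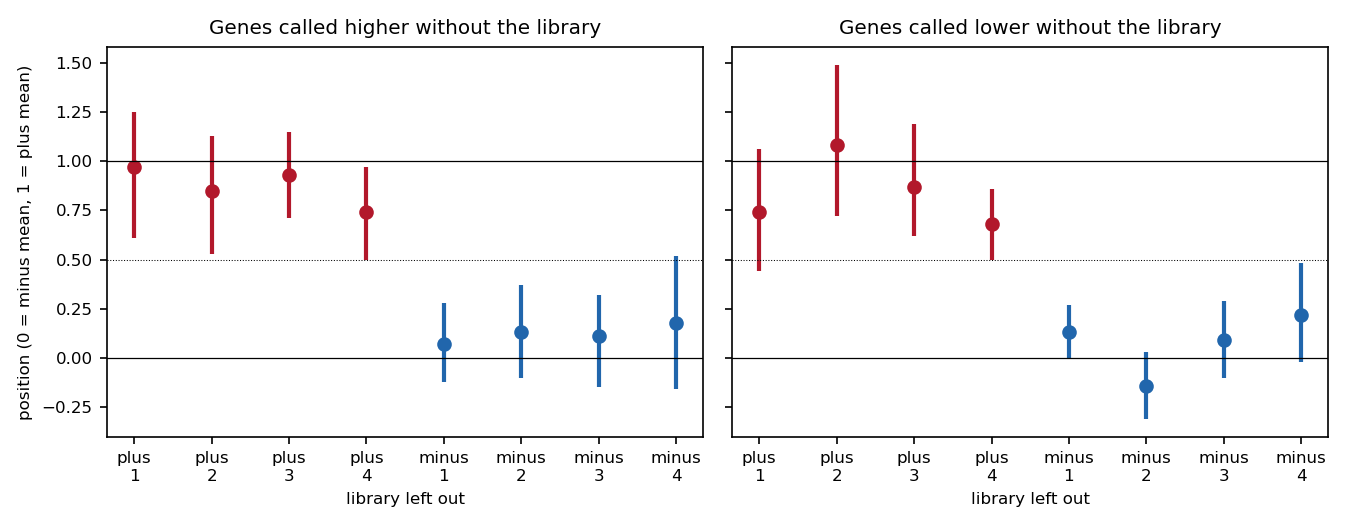
For each of the 8 libraries on the horizontal axis, points give the median and bars the quartiles, over genes called higher (left) or lower (right) in the fit on the other 7 libraries, of its position between the minus-marked mean (0) and the plus-marked mean (1) of the libraries that remained. The plus-marked medians lie between 0.68 and 1.08 and the minus-marked ones between -0.14 and 0.22.

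The plus-marked libraries were more variable among themselves, a difference that was smaller without library 2. The common biological coefficient of variation, edgeR's estimate of the spread between libraries beyond counting error, was 0.213 in the plus-marked and 0.176 in the minus-marked group. Leaving out plus-marked library 2 gave 0.187, while leaving out 1, 3 or 4 gave 0.206, 0.232 or 0.228. In the minus-marked group it ranged from 0.157 to 0.193 with 1 library left out. Among the 14822 genes not called, the SD of log2 CPM was larger in the plus-marked group for 63.0%, and for 51.4% without plus-marked library 2. For the genes called lower the shares were 68.0% and 54.1%, and for those called higher 54.1% and 48.8%. Each share fell whichever plus-marked library was left out, which sets an SD of 3 libraries against an SD of 4. Among genes called lower and genes not called, the fall was by far the largest without library 2. Among genes called higher library 2 did not stand out, with 49.6% without library 1 and 50.8% without library 4. There the share changed least without library 3. This difference in spread was not tested.

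ENSRNOG00000022242 rose most among called genes whose mean log2 CPM reached 1 and whose marks did not overlap. It stood at 40.2, 6.45, 15.4 and 16.5 CPM in plus-marked libraries 1 to 4 and at 1.29, 2.02, 0.732 and 1.12 CPM in minus-marked libraries 1 to 4. All plus-marked values lay above all minus-marked ones, but library 1 was far above the other plus-marked libraries and library 2 far below them. The means were 19.6 ± 14.4 and 1.29 ± 0.538 CPM (SD, n = 4). The fitted log2 change was 3.92 with an SE of 0.56 and an adjusted p of 0.00294 by edgeR. It ranged from 3.29 to 4.23 with 1 library left out, and it was 5.03 within L24 (edgeR adjusted p = 0.137) and 2.10 among the other codes (edgeR adjusted p = 0.0314).

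ENSRNOG00000002005 rose by a smaller amount and far more evenly. Its plus-marked values were 8.99, 7.62, 9.32 and 9.83 CPM, and its minus-marked values 0.969, 1.45, 1.65 and 0.715 CPM. Lack of overlap was a condition for naming it, and here the groups were well apart and the plus-marked libraries lay close together. The means were 8.94 ± 0.944 and 1.20 ± 0.43 CPM (SD, n = 4). The fitted log2 change was 2.89 with an SE of 0.26 and an adjusted p of 0.000122 by edgeR. It was 2.50 within L24 (edgeR adjusted p = 0.00471) and 2.84 among the other codes (edgeR adjusted p = 0.0184).

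ENSRNOG00000014940 fell most among called genes whose mean log2 CPM reached 1 and whose marks did not overlap, and it was also the most abundant of the 4. Its minus-marked values were 116, 134, 103 and 114 CPM, and its plus-marked values 20.3, 8.50, 22.2 and 22.6 CPM. The highest plus-marked value was far below the lowest minus-marked one, and library 2 lay lowest. The means were 117 ± 13.2 and 18.4 ± 6.67 CPM (SD, n = 4). The fitted log2 change was -2.66 with an SE of 0.25 and an adjusted p of 0.00024 by edgeR. It was -2.25 within L24 (edgeR adjusted p = 0.000116) and -3.85 among the other codes (edgeR adjusted p = 0.00146).

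ENSRNOG00000047124 came next among the genes that met these conditions, on less even values. The minus-marked libraries had 2.28, 8.07, 4.39 and 11.1 CPM and the plus-marked ones 0.334, 1.66, 1.08 and 1.86 CPM. The groups did not overlap, but the highest plus-marked value lay just under the lowest minus-marked one. The means were 6.46 ± 3.90 and 1.23 ± 0.684 CPM (SD, n = 4). The fitted log2 change was -2.43 with an SE of 0.55 and an adjusted p of 0.0175 by edgeR. This call was lost without plus-marked library 3 (-2.39, edgeR adjusted p = 0.0522), with L24 as a term (-2.07, 0.061), within L24 (-2.03, 0.187) and among the other codes (-2.12, 0.2).

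**Figure D4:**
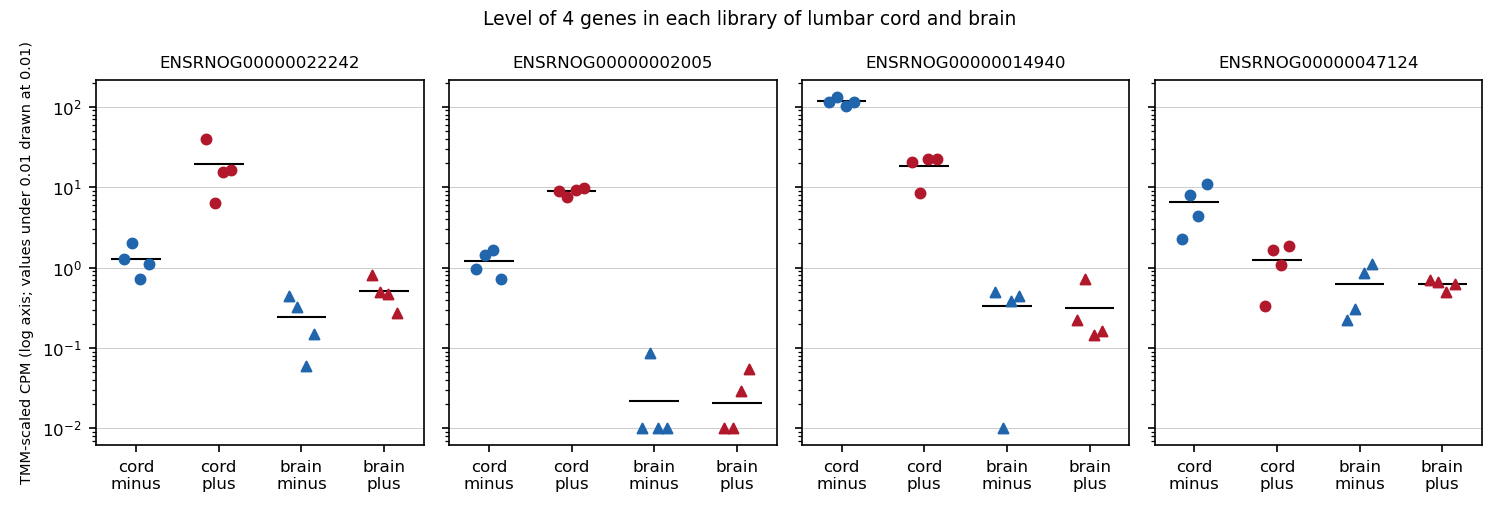
Points give the TMM-scaled CPM of 4 genes in each library of lumbar cord (circles) and brain (triangles), on a log axis, with minus-marked libraries in blue and plus-marked in red; lines are means, and values under 0.01 are drawn at 0.01. In cord the marks do not overlap for any of the 4 genes, which the rule that named them required. An example is ENSRNOG00000014940 with 103 to 134 CPM in minus-marked against 8.50 to 22.6 CPM in plus-marked libraries. In brain all 4 genes are low.

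All 4 genes were low in the brain libraries. The names of these carry the same plus mark and the same numbers as those of cord, but a hyphen in place of "jian", which was read as the minus mark. Brain means in plus- and minus-marked libraries were 0.51 ± 0.22 and 0.246 ± 0.174 CPM for ENSRNOG00000022242, 0.312 ± 0.272 and 0.335 ± 0.228 CPM for ENSRNOG00000014940, and 0.622 ± 0.0888 and 0.623 ± 0.426 CPM for ENSRNOG00000047124 (SD, n = 4). ENSRNOG00000002005 had at most 4 counts in any brain library and did not pass the filter there. The genes were chosen by a large change in cord, which by itself favours a large difference from brain. At such low levels in brain, a fall could hardly show. The difference between cord and brain in the log2 effect of mark, tested as the interaction in a joint edgeR fit, was 2.78 (SE 0.87, adjusted p = 0.094) for ENSRNOG00000022242. It was -2.64 (SE 0.79, adjusted p = 0.0885) for ENSRNOG00000014940 and -2.42 (SE 0.75, adjusted p = 0.087) for ENSRNOG00000047124. None of these 3 passed the threshold in this fit. With DESeq2 the adjusted p was 0.0218 for ENSRNOG00000022242 and 0.0209 for ENSRNOG00000047124. The joint edgeR fit took the cord and brain libraries as independent, although their names share numbers. With the number as a replicate block, the edgeR adjusted p was 0.0226 for ENSRNOG00000022242 and 0.0311 for ENSRNOG00000047124. For these genes the call depended on the fit. ENSRNOG00000014940 passed neither with DESeq2 (adjusted p = 0.0722) nor with the block (edgeR adjusted p = 0.2).

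Over all genes, the effect of mark differed between cord and brain for 498 of 17823 tested in the joint edgeR fit (2.79%). The effect was more positive in cord for 183 of them and more negative for 315, with a median absolute difference of 0.74 on the log2 scale. Brain alone gave 41 calls among 16860 genes tested (0.243%). No brain library carried code L24, and no fit of the interaction held the code as a term. DESeq2 called 1129 genes for the interaction, and edgeR with the shared number as a replicate block called 696. Single libraries moved the edgeR count, which lay between 215 and 647 with 1 library left out. Leaving out a cord library gave 593, 472, 323 or 647 (plus-marked 1 to 4) and 318, 229, 337 or 492 (minus-marked 1 to 4). Leaving out a brain library gave 233, 256, 215 or 261 (plus-marked 1 to 4) and 364, 597, 220 or 313 (minus-marked 1 to 4).

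Single libraries also moved the count of genes called in cord. Leaving out plus-marked library 3 gave 1463 genes, and leaving out minus-marked library 1, 2 or 3 gave 1341, 1175 or 1398. The number at least 2-fold lower was 75 without minus-marked library 2, against 124 with all libraries. Whichever of the 8 libraries was left out, more genes were at least 2-fold higher (308 to 421) than at least 2-fold lower (75 to 151). The balance by abundance held in most of the 19 alternatives. More genes were at least 2-fold higher than lower from 10 to 100 CPM in 18 of them, the exception being the libraries of the codes other than L24, with 96 higher and 219 lower. At 100 CPM and above, more genes were called lower than higher in 17 of them, the exceptions being the fit within L24, with 29 higher and 20 lower, and the fit with L24 as a term, with 339 and 310.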

How the data were processed

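Libraries were made after rRNA depletion, with dUTP marking the strand, and read in pairs, per the labels' protocols. The deposited tables hold raw counts per Ensembl gene made by the authors. Per the submitters' processing notes, cutadapt, featureCounts, DESeq2 and build mRatBN7.2 were used; the aligner and strand setting are not stated, so overlapping or near-identical genes may share reads. No label ties samples to separate animals; p-values then measure only the spread among these libraries, which may be technical. The early-stage table's 12 columns could not be tied to a genotype and were not used.

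Genes passing filterByExpr were fitted with edgeR 4.0.16 in R 4.3.3 (TMM scaling, robust quasi-likelihood F test, two-sided, Benjamini-Hochberg adjustment over all genes tested, threshold 0.05). SEs were derived from F; CPM values are TMM-scaled; log2 CPM used a prior count of 2. The interaction with brain used the cord and brain libraries in 1 fit. DESeq2 1.42.0 was an alternative. The naming rule (adjusted p under 0.05, mean log2 CPM of at least 1, no overlap between marks, by fold change) asked for a gene symbol; that condition was lifted and 2 identifiers per direction were kept, of 915 and 1020 eligible. None of 48 gene lists could be tested. Members and lists were chosen with earlier results of these data known.

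In simulated cord counts for 17134 genes, 1.5-fold changes were recovered by edgeR in 42.9% of cases and 2-fold changes in 81.4%, and 4.83% of the calls were false. The simulated counts were independent, with the same spread in both marks and for genes of like abundance. They held no effect of code and no excess of even counts. Far fewer genes were changed in them, with 145 calls against 2312 in the data. These rates therefore need not hold for the real libraries.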

Additional observations from a re-analysis of the deposited data

Results flagged for a closer look

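ENSRNOG00000014940 stood at 8.50 CPM in plus-marked library 2, far below the other 3 plus-marked libraries at 20.3 to 22.6 CPM. This library rests on 174 counts of the gene and is the shallowest of the 8. Dixon's test was applied to 20 groups of 4 values and marked this one alone; chance marks about 1 group in 20.

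In the joint fit, the interaction of mark and tissue was called for 498 genes. The brain libraries share the plus mark and the numbers with those of cord, and their minus mark is written differently. Dissection, depth and cell make-up of the tissues cannot be told apart from the tissue itself. No brain library carried code L24, which in cord fell mostly on plus-marked libraries. The part of the code in the interaction was not tested.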

How the results depend on the processing

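Without 1 library, the genes called numbered 1175 to 2114 (661 to 1079 higher, 514 to 1070 lower), those at least 2-fold changed 308 to 421 higher and 75 to 151 lower, and the interaction genes 215 to 647. All 8 cord fits called 1004 of the 2312 genes, and 0 changed sign. Requiring a 2-fold change left 543. Within L24 there were 267 (198 higher, 69 lower; 173 and 30 at 2-fold), and among the other codes, chosen after seeing the data, 1089 (396 and 693; 251 and 393 at 2-fold). DESeq2 called 3348 genes in cord (1769 higher, 1579 lower), and 1129 for the interaction. In the simulation, whose settings differ from the real libraries, 17.3% of its cord calls were false. Other counts stayed within 1.5 times. Thinning to 21008418 counts, also chosen later, gave 2149.

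Of 136 alternative values of the 4 genes, 126 kept direction and side of the threshold, 5 lost a call and 5 gained one; 0 reversed. The lost calls stand beside each gene; those gained were interactions, of ENSRNOG00000022242 with DESeq2, the block or cord plus-marked library 2 left out, and of ENSRNOG00000047124 with DESeq2 or the block.

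No paired analysis of cord alone was possible because the numbers in its column names differ between the marks. Between cord and brain, same-numbered libraries deviated together with r from -0.054 to 0.269, over 0.1 in 6 of 8 pairs, and 7 of 8 cord libraries correlated best with their own number. The condition for pairing rested on a correlation of 0.1 and was counted as not met. This does not show that same-numbered libraries come from different rats. With the number as a replicate block, 696 interaction genes were called, 455 of them among the 498; ENSRNOG00000022242 and ENSRNOG00000047124 then passed (edgeR adjusted p = 0.0226 and 0.0311). The tests of gene lists were not run.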
